A study of Mus musculus with 8 samples.

Results

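The left ventricle of mdx mice with 1 functional copy of Sln (mdx sln+/-, 3 libraries) was set against that of wild-type mice (WT, 2 libraries), gene by gene, to describe what still differed from WT when sarcolipin was reduced in the dystrophic heart. The comparison was defined by the genotype labels and uses 5 of the 8 libraries of the series. The other 3 libraries, from mdx mice with both Sln copies, are given beside it for reference. All 3 groups were on a C57 genetic background and 6 months old. The mdx and mdx sln+/- groups both carry the mdx allele, a nonsense mutation of the X-linked dystrophin gene Dmd, in every cell of the body, and the mdx sln+/- group also lacks 1 Sln allele. The labels do not say how the Sln allele was made, what sex the mice were, or whether each library came from a separate mouse, so the p-values measure the spread between these libraries, which may be technical.

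Dystrophin links the actin cytoskeleton of the cardiomyocyte to a glycoprotein complex in the cell membrane and through it to laminin in the matrix. Hearts without it have fragile membranes, excess calcium entry, inflammation and fibrosis. Sarcolipin is a small protein of the sarcoplasmic reticulum that binds the SERCA calcium pump and lowers its activity, it is normally most abundant in atria and in slow skeletal muscle, and it is raised in dystrophic muscle.

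RNA of the ventricle was sequenced with paired-end reads, and the deposited values are normalised log2 abundances of 33027 transcripts of 14578 genes. They were summed to genes, and 13783 genes that reached a value of 1 in 2 or more libraries were tested. A level below means log2(value + 1) of a gene in 1 library. A change means the fitted difference of mdx sln+/- minus WT on that log2 scale, with its standard error (SE), which understates the change of genes with low levels. A gene is said to be called, or to have risen or fallen, when its Benjamini-Hochberg adjusted p from limma was under 0.05. Counts of reads were not part of the data, so the depth of each library is unknown. In whole tissue, fewer cells of a type and less RNA per cell cannot be told apart.

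Several libraries differed in ways that the groups do not explain. Eif2s3y, a Y-linked gene, had a level of 6.11 in WT 1 but 0.92 in WT 2. In mdx sln+/- it was 3.29, 4.14 and 1.31 in libraries 1, 2 and 3, and in mdx it was between 4.01 and 5.91. WT 2 and mdx sln+/- 3 thus had the lowest levels of a Y-linked gene. The library names also fell into plain names (both WT libraries, mdx 3 and mdx sln+/- 3) and names with an added index (mdx 1 and 2, mdx sln+/- 1 and 2). No WT library had an indexed name. With 2 and 3 libraries the groups often do not overlap: all mdx sln+/- libraries lay above both WT libraries in 36.4% of all genes tested and below both in 23.5%. Of 10 cardiomyocyte markers 0 were called in either direction (1 lower without WT 1), but 7 lay above both WT libraries in all mdx sln+/- libraries and 1 below, and their summed level was 15.50 to 15.57 in WT and 15.62 to 15.70 in mdx sln+/-. Of 6 atrial markers 0 were called (1 higher without WT 1, and 1 lower without mdx 1, mdx 2 or mdx sln+/- 2), but their summed level was 8.48 to 8.86 in WT and 9.16 to 9.51 in mdx sln+/-, and Nppa was the most abundant of them. RNAs that lack a poly(A) tail, such as histone messages, had a summed level of 7.79 to 7.98 in WT and of 7.49 to 7.60 in mdx sln+/-, with no overlap. Of 6 tested 1 fell, the histone gene Hist1h4h (-0.68 ± 0.09, adjusted p = 0.0511 without mdx sln+/- 1), and 2 were called lower without WT 1 or mdx 1.

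Of the 13783 genes tested, 2193 (15.9%) were called between mdx sln+/- and WT. Of these, 1297 (9.41%) were higher in mdx sln+/- and 896 (6.5%) were lower. Most changes were small: the median size was 0.58 among the called genes and 0.19 among all genes tested, and 340 called genes (2.47%) differed by more than 2-fold, 196 higher and 144 lower. More than 4-fold changes were found in 16 genes that rose and 19 that fell. The 3 mdx sln+/- libraries all lay above or all lay below both WT libraries in 8247 genes (59.8%), above in 5011 (36.4%) and below in 3236 (23.5%), and these hold all 2193 called genes. The median change of all genes tested was 0.05. With a median-ratio scaling of the libraries the share of calls that were higher was 44.7%, and with an upper-quartile scaling it was 49.8%, against 59.1% as reported. The number of calls rested on single libraries. It was 827 without WT 2, 316 without mdx sln+/- 1, 584 without mdx sln+/- 3 and 66 without WT 2 and mdx sln+/- 3 together, and in each of these settings all 2193 genes kept the sign of their change. With the level of Eif2s3y as a further term 2680 genes were called, and with the style of the library name as a further term 711. For the genes named below, a library whose omission ended the call is given, in most cases with the adjusted p without it. Other settings that ended a call, such as the name style or 2 libraries left out together, are mostly not given gene by gene.

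**Figure D1:**
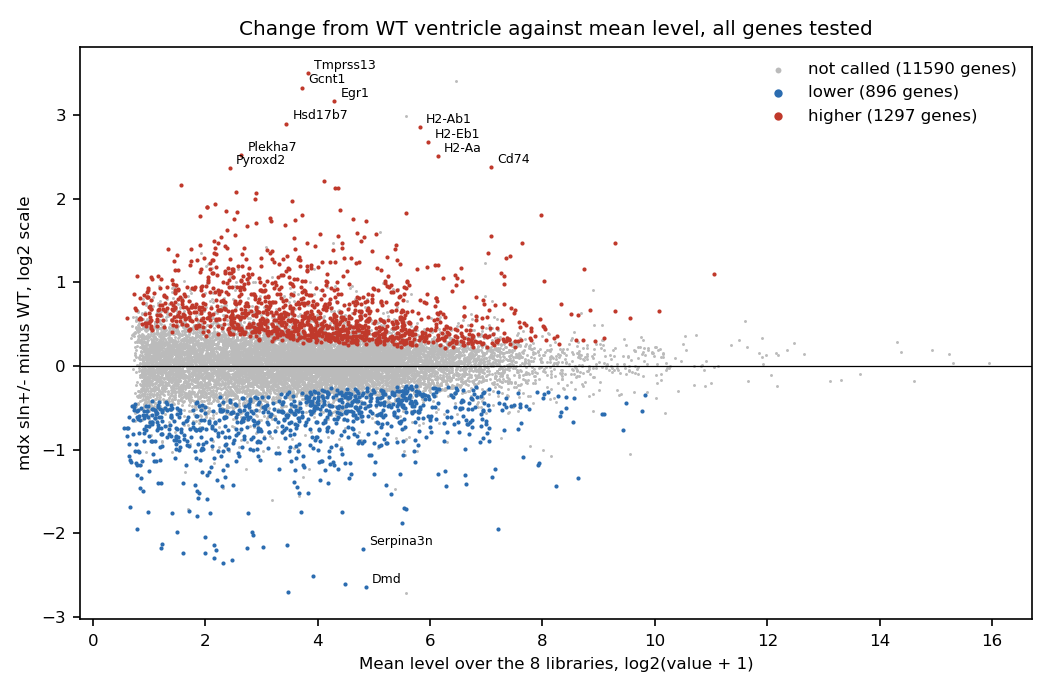
Each point is 1 of the 13783 genes tested, placed by its mean level over the 8 libraries (x axis, log2(value + 1)) and its change from WT in mdx sln+/- (y axis, log2 scale). Called genes are red (1297 higher) or blue (896 lower), and the 10 largest rises that were named, with Dmd and Serpina3n among the falls, are labelled.

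The mdx libraries were set against the same 2 WT libraries in the same fit. There, 2080 genes (15.1%) were called, 1123 (8.15%) higher and 957 (6.94%) lower, and the number was 638 without WT 2, 1008 without mdx 1, 901 without mdx sln+/- 1 and 1352 without mdx sln+/- 3. Between mdx sln+/- and mdx, limma called 0 genes (0%). The smallest adjusted p was 0.477, and 1186 genes (8.6%) had an unadjusted p under 0.05. No other tool was run on this comparison. Both comparisons with WT share the WT libraries, so their values are set side by side and their likeness was not computed.

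Dystrophin RNA showed the largest fall among the named genes. Dmd (ENSMUSG00000045103, chrX:82948870-85206141, GRCm38/mm10, plus strand) had levels of 6.60 and 6.98 in WT and of 4.09, 4.10 and 4.25 in mdx sln+/-. The groups were far apart, and the change was -2.65 ± 0.12 (adjusted p = 0.000177), a 6.26-fold lower level. In mdx the change was -2.51 ± 0.12. The transcripts shared the fall unequally: the most abundant in WT, Dmd-203, changed by -3.04, Dmd-201 by -1.37 and Dmd-211 by -1.11. Dmd RNA thus followed the mdx label in all 3 mdx sln+/- libraries. The Sln gene itself was not analysed here, so the sln+/- label was not checked against its RNA.

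The dystrophin-associated complex had 23 tested members, of which 2 rose and 3 fell, Dmd included (21.7% called, against 15.9% of all genes), and their median change was 0.02. The number that rose was 1 without WT 1, WT 2 or mdx sln+/- 3 and 0 without mdx sln+/- 1, where 1 fell. Dtna, whose product dystrobrevin binds dystrophin under the membrane, fell from 6.07 and 6.02 in WT to 5.57, 5.56 and 5.59, a change of -0.47 ± 0.06 (adjusted p = 0.0538 without mdx sln+/- 1). Sgcd, a sarcoglycan, changed by -0.45 ± 0.11, a call that was lost without WT 2 (adjusted p = 0.139), mdx sln+/- 1 (0.158), mdx sln+/- 2 (0.0571) or mdx 2 (0.0572). Sntb1, a syntrophin that docks signalling proteins on the complex, rose from 1.60 and 1.66 to 2.63, 2.55 and 2.82 (change 1.03 ± 0.16, adjusted p = 0.0553 without mdx sln+/- 1). Utrn, the autosomal relative of dystrophin, had levels of 5.89 and 5.99 in WT and 5.75 in each mdx sln+/- library, and its change of -0.19 ± 0.09 was not called (adjusted p = 0.176). Dag1, the dystroglycan precursor, was not called either, at -0.12 ± 0.07 (adjusted p = 0.268).

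The SERCA pumps and their small regulators, the family sarcolipin belongs to, held no called gene. Of 14 members 9 were measured and 8 tested, 0 of which were called in either direction, against 15.9% of all genes, and their median change was 0.00. With so few members a count of 0 is close to that share, and 1 member was called higher without WT 1. Atp2a2, the main SERCA pump of the heart, had levels of 13.44 and 13.58 in WT and of 13.33, 13.29 and 13.40 in mdx sln+/-. The libraries of the groups did not overlap, as in 59.8% of all genes, but the change of -0.17 ± 0.15 was not called (adjusted p = 0.481). Pln, phospholamban, the chief inhibitor of that pump in the ventricle, had levels of 11.96 and 11.82 in WT and of 11.71, 11.58 and 11.82 in mdx sln+/- (change -0.18 ± 0.16, adjusted p = 0.455). In mdx, Pln differed from WT by -0.44 ± 0.16, which was not called (adjusted p = 0.107).

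Among 33 genes of calcium release, entry and exchange, 6 rose and 2 fell, with a median change of -0.01. The share called was 24.2% here and 20.8% in the calcineurin and CaMKII list below, against 15.9% of all genes. Cacnb2, the beta subunit of the L-type calcium channel, rose from a mean of 4.98 in WT to 5.61, 5.54 and 5.74 (change 0.65 ± 0.09), and Smdt1, a subunit of the mitochondrial calcium uniporter, from 5.52 and 5.65 to 5.99, 6.01 and 5.98 (change 0.41 ± 0.07). The call of Smdt1 was lost without mdx sln+/- 1 (adjusted p = 0.0749) or mdx sln+/- 3 (0.0578), and the list had 1 higher call without either of these libraries and 3 without WT 2. It had 0 lower calls without WT 2, mdx 2 or any 1 mdx sln+/- library. Of 24 genes of calcineurin and CaMKII signalling, 3 rose and 2 fell, with 0 higher calls without WT 2 or mdx sln+/- 1 and 1 without mdx sln+/- 3. The lower calls were 0 without any of these 3 libraries, 1 without mdx 2 or mdx sln+/- 2, and 4 with a median-ratio or an upper-quartile scaling. Hdac9, a class II histone deacetylase, rose by 1.07 ± 0.20 (adjusted p = 0.0583 without WT 1, 0.0609 without WT 2 and 0.0511 without mdx sln+/- 1).

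Of the 10 largest rises, 5 were genes of different pathways with low levels in WT. Tmprss13, a membrane-bound serine protease (ENSMUSG00000037129, chr9:45319100-45347581), had levels of 1.03 and 1.12 in WT and of 4.61, 4.56 and 4.58 in mdx sln+/-, a change of 3.51 ± 0.11 (11.4-fold). Gcnt1, an enzyme that branches O-linked glycans (chr19:17326141-17372844), went from 1.33 and 1.41 to 4.48, 4.91 and 4.72, a change of 3.33 ± 0.16 (10.1-fold). Hsd17b7, an enzyme of cholesterol and steroid synthesis, rose from 1.51 and 1.13 to 4.05, 4.23 and 4.38 (2.90 ± 0.16), and was the only 1 of 22 cholesterol synthesis genes to be called. Plekha7, a protein of the zonula adherens, rose from 0.63 and 1.00 to 3.40, 3.30 and 3.33 (2.53 ± 0.15). Pyroxd2, a mitochondrial oxidoreductase, was of the same kind, with 0.57 and 0.68 in WT and 2.95, 3.17 and 2.84 in mdx sln+/- (2.37 ± 0.17). In mdx the changes from WT were 3.81 for Tmprss13, 2.96 for Gcnt1, 2.77 for Hsd17b7, 2.35 for Plekha7 and 2.46 for Pyroxd2.

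Among the largest falls were 4 RNAs that are hard to tell from a neighbour or a copy. Atcayos, an antisense RNA that overlaps Atcay and Nmrk2 (chr10:81194609-81210877), fell from 6.60 and 6.38 to 3.86, 3.87 and 3.93, a change of -2.60 ± 0.09. Whether strand was used in counting is not given, so its reads cannot be told from those of the overlapping genes. Rps13-ps2 (change -2.51 ± 0.11), Amd-ps3 (-2.36 ± 0.12) and Amd-ps4 (-2.23 ± 0.14) are processed pseudogenes, whose reads may come from the parent gene. Amd1, the polyamine synthesis gene that Amd-ps3 and Amd-ps4 copy, was looked up after their values were seen: it fell from 7.18 and 7.36 to 5.94, 5.86 and 5.70 (change -1.44 ± 0.13). The direct difference of mdx sln+/- from mdx in Amd-ps3, -0.69 ± 0.10, did not pass (adjusted p = 0.539).

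Dixdc1, a Wnt pathway protein, fell from 3.22 and 3.41 to 1.12, 0.99 and 1.11 (change -2.24 ± 0.12). Ahsg, the circulating glycoprotein fetuin-A, fell from 3.34 and 4.27 to 1.84, 1.52 and 1.42 (-2.21 ± 0.28). Angptl7, a secreted angiopoietin-like protein, was 3.17 in WT 1 and 5.08 in WT 2 and between 1.64 and 2.02 in mdx sln+/-. Its change of -2.32 ± 0.53 lost its call without WT 2 (adjusted p = 0.0566), mdx 2 (0.0539), or mdx sln+/- 1 (0.0867), 2 (0.0537) or 3 (0.0896). Serpina3n, an acute-phase protease inhibitor, was the largest fall with a small change in mdx. Its levels were 5.58 and 6.12 in WT, 3.82, 4.04 and 3.13 in mdx sln+/- and 5.94, 4.89 and 4.97 in mdx, so that the mdx sln+/- libraries lay below all 5 others. The change from WT was -2.19 ± 0.40 (adjusted p = 0.0155, and 0.0889, 0.0598 and 0.0527 without WT 2, mdx sln+/- 1 and mdx sln+/- 3), against -0.58 ± 0.40 in mdx. The direct difference from mdx was -1.61 ± 0.35 (unadjusted p = 0.00202, adjusted p = 0.578), which did not pass the adjustment.

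**Figure D2:**
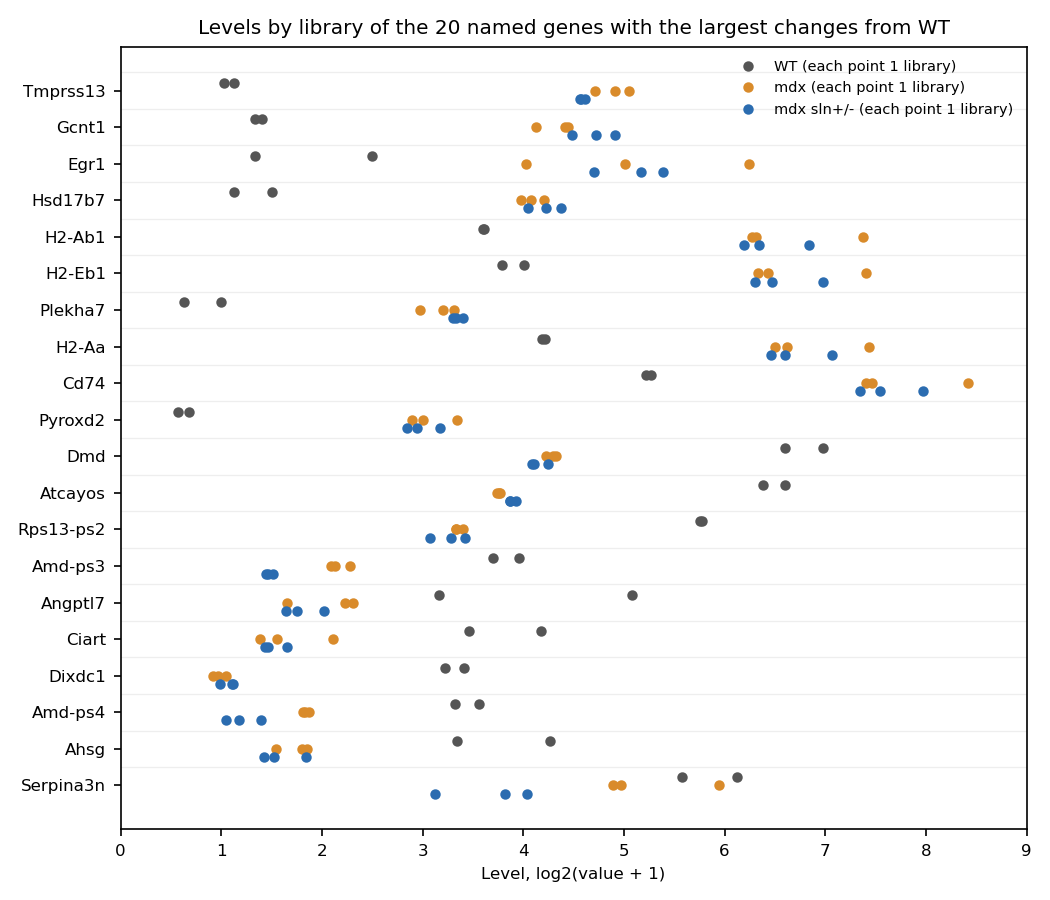
Levels (x axis, log2(value + 1)) of the 10 genes with the largest named rises and the 10 with the largest falls, 1 point for each library: grey for WT, orange for mdx and blue for mdx sln+/-. No blue point overlaps the grey points of its gene. In Serpina3n, Amd-ps3, Amd-ps4 and Gcnt1 all blue points lie beyond the orange ones on the side away from WT. The widest gap is in Serpina3n (3.13 to 4.04 against 4.89 to 5.94). All blue points lie on the WT side of the orange ones in Tmprss13 (4.56 to 4.61 against 4.71 to 5.05). The same holds in Atcayos (3.86 to 3.93 against 3.73 to 3.77). The share of all genes with such gaps between the mdx groups was not computed.

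Among the lists, MHC class II presentation had the largest median change. MHC class II molecules display peptides of engulfed protein on macrophages, dendritic cells and B cells, under the control of the transactivator Ciita and of the RFX and NF-Y factors, which bind a conserved promoter module that ends in a CCAAT box. Of 9 members tested, 8 rose (88.9%) and 1 fell (11.1%), against 9.41% and 6.5% of all genes. The median change was 1.85, against 0.05 for all genes. H2-Ab1, the beta chain of the I-A molecule, had levels of 3.61 and 3.60 in WT and of 6.35, 6.84 and 6.19 in mdx sln+/-, a change of 2.86 ± 0.36 (7.24-fold). H2-Aa, its alpha chain, went from 4.21 and 4.19 to 6.60, 7.07 and 6.46 (2.51 ± 0.30), H2-Eb1, an I-E chain, from 3.79 and 4.01 to 6.47, 6.97 and 6.30 (2.68 ± 0.35), and Cd74, the invariant chain that fills the groove until a peptide is loaded, from 5.22 and 5.27 to 7.54, 7.97 and 7.34 (2.38 ± 0.33). All mdx sln+/- libraries were above both WT libraries by more than 2 log2 units in these 4 genes, and library 2 was the highest of the 3. Rfx5, picked out as the only member that fell, encodes a DNA-binding factor of class II promoters and changed from 2.32 and 2.36 to 1.84, 1.73 and 1.88 (-0.52 ± 0.11, a call lost without either WT library, mdx sln+/- 1 or mdx sln+/- 3, with adjusted p of 0.0527 to 0.116). In mdx the median change of the list was 1.94. The number of members that rose was 5 without WT 2 or mdx sln+/- 1, 6 without mdx sln+/- 3 and 0 without WT 2 and mdx sln+/- 3 together, where H2-Aa still differed by 2.67 (adjusted p = 0.0808).

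The promoters of 2 class II genes are shown because the CCAAT box is the part of the module that can be found by its letters. They are the 150 bases before the RefSeq start site (GRCm38.p6), of H2-Aa at chr17:34287824-34287973 on the minus strand and of H2-Eb1 at chr17:34305717-34305866 on the plus strand, with CCAAT on either strand in capitals.
H2-Aa: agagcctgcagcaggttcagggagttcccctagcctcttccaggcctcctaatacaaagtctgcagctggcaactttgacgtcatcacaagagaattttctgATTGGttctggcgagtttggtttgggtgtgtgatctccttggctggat
H2-Eb1: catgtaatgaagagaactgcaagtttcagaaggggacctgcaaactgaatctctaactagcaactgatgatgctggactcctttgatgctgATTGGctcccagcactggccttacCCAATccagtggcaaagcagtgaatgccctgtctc
In windows from 250 bases before to 50 after the start, CCAAT was found in 4 of 5 class II genes that rose (80%) and that had a window. It was also found in Rfx5, which fell, and so in 5 of 6 tested members with a window (83.3%). Among all genes tested with a window it was found in 4047 of 9507 (42.6%).

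MHC class I genes and the immunoproteasome, which cut and present the cell's own proteins, rose nearly as a whole. Of 19 members 18 were called higher (94.7%, against 9.41% of all genes) and 0 lower. The median change was 1.27 (1.32 in mdx). H2-M3, a class I molecule for formylated peptides, went from 1.21 and 1.12 to 2.42, 2.46 and 2.43 (1.27 ± 0.18). Tapbp, tapasin, which loads class I molecules, went from 5.72 and 5.70 to 6.29, 6.28 and 6.25 (0.56 ± 0.08, adjusted p = 0.0561 without mdx sln+/- 1). The calls of this list were close to the threshold: 4 members were called without WT 1, 2 without WT 2, 1, 6 and 3 without mdx sln+/- 1, 2 and 3, 6 without mdx 2, and 9 with a median-ratio scaling.

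Of 31 interferon response genes, 19 rose (61.3%) and 0 fell, against 9.41% and 6.5% of all genes. The median change was 0.91 (0.84 in mdx). Interferons act through the factor ISGF3, which binds the interferon-stimulated response element in the promoters of these genes. Gbp3, an interferon-induced GTPase, had levels of 2.12 and 2.34 in WT and of 3.55, 3.58 and 3.61 in mdx sln+/-, a change of 1.35 ± 0.16 (2.55-fold). Oasl2, a relative of the antiviral oligoadenylate synthetases, went from 1.38 and 1.79 to 2.80, 2.71 and 2.76 (1.17 ± 0.14). Ifit1, an antiviral RNA-binding protein picked for its promoter, went from 1.38 and 1.63 to 2.87, 2.90 and 2.61 (1.28 ± 0.21, adjusted p = 0.0596 without mdx sln+/- 1). The groups did not overlap in any of the 3, which held for 59.8% of all genes. The number of members that rose was 9 without WT 2, 6 without mdx sln+/- 1, 11 without mdx sln+/- 3 and 1 without WT 2 and mdx sln+/- 3 together.

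The element was searched as GAAA, any 2 bases and GAAA, on both strands, and 2 promoters that hold it are shown, of Gbp3 (chr3:142559894-142560043) and Ifit1 (chr19:34640739-34640888), both on the plus strand, 150 bases before the RefSeq start site with matches in capitals.
Gbp3: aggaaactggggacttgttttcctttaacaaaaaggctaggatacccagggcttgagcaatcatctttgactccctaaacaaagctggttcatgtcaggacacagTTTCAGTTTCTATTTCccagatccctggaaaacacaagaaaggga
Ifit1: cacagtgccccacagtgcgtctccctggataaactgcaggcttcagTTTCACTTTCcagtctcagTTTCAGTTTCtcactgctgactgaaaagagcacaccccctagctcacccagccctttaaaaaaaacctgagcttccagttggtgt
Each holds 2 matches, which overlap in Gbp3. A match was found in 7 of 13 interferon genes that rose and had a window (53.8%), in 13 of 22 tested members with a window (59.1%), and in 352 of 9507 genes tested with a window (3.7%).

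Markers of macrophages moved in the same direction as the antigen presentation genes. Of 23 tested, 9 rose (39.1%) and 1 fell (4.35%), against 9.41% and 6.5% of all genes. Their summed level was 8.14 to 8.22 in WT and 8.58 to 8.73 in mdx sln+/-. Mpeg1, a pore-forming protein of macrophages, went from 3.04 and 2.91 to 4.78, 4.87 and 4.87 (1.87 ± 0.27), and Fcer1g, a signalling chain of Fc receptors, from 2.29 and 2.07 to 3.02, 3.05 and 3.01 (0.84 ± 0.13, adjusted p = 0.0573 without mdx sln+/- 1). Lyve1, picked out as the only marker that fell, is carried by resident macrophages and lymphatic endothelium and changed from 4.77 and 5.13 to 3.84, 4.08 and 3.51 (-1.14 ± 0.27, with adjusted p of 0.0559 to 0.15 without either WT library, mdx sln+/- 1 or mdx sln+/- 3). The number of markers that rose was 3 without WT 2, 1 without mdx sln+/- 1 and 4 without mdx sln+/- 3. Kit, a receptor of mast cells and progenitors, rose from 0.49 and 0.76 to 1.82, 2.12 and 1.92 (1.33 ± 0.18). The part of these cell markers in the rise of the antigen presentation genes was not tested. Of 15 complement genes 0 rose and 2 fell (13.3% called, near the 15.9% of all genes), while their median change was 0.39. In the mdx sln+/- libraries 9 members lay wholly above WT and 3 wholly below, against 36.4% and 23.5% of all genes. Without mdx 1, 2 members were called higher. Cd59a, a membrane inhibitor of complement, fell by 0.66 ± 0.11 on the log2 scale (adjusted p = 0.0533 without mdx sln+/- 3), and the lower calls were 1 without WT 2, mdx 1, mdx 3 or mdx sln+/- 1 and 0 without mdx sln+/- 3.

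**Figure D3:**
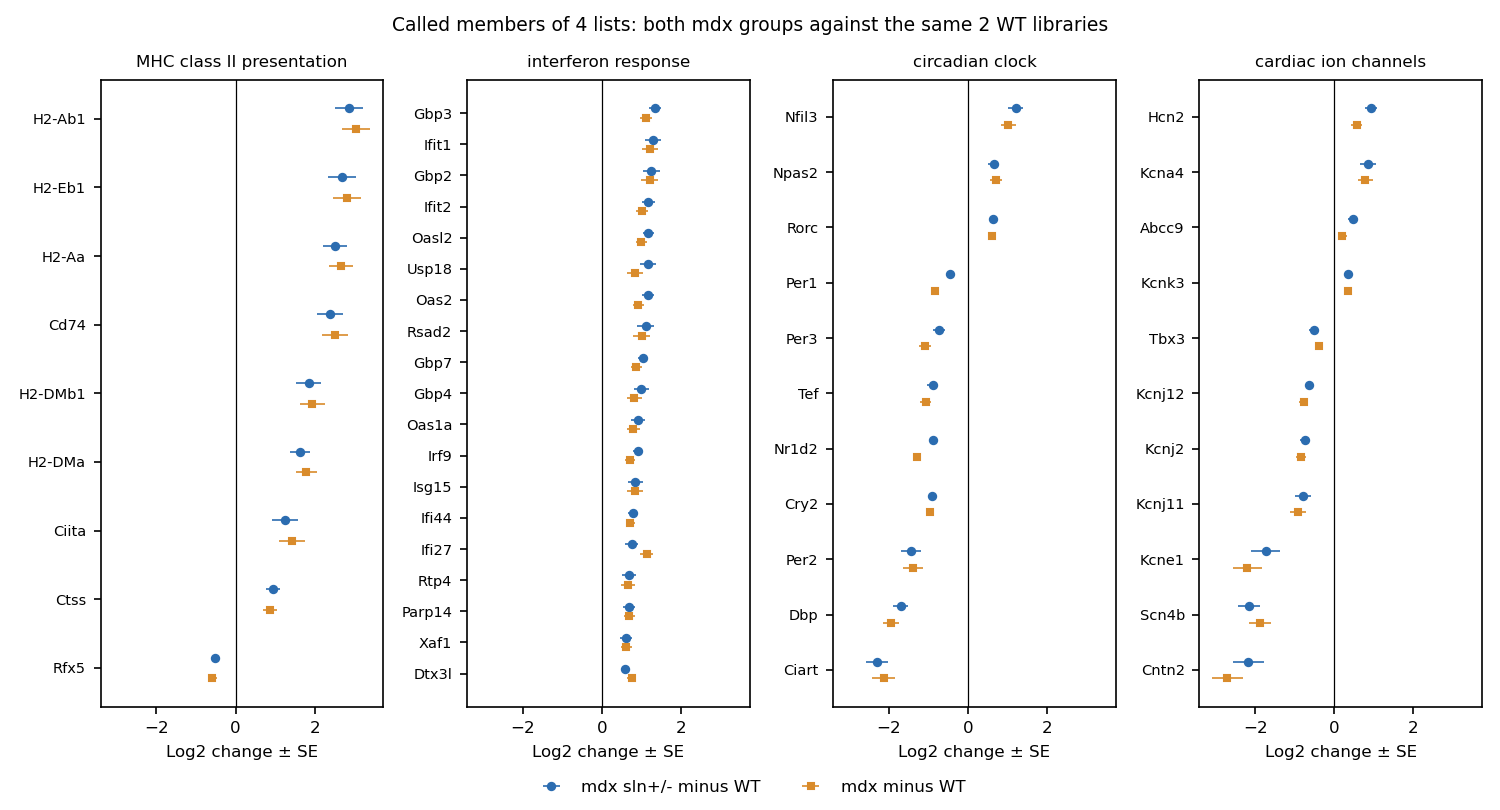
Change from WT (x axis, log2 scale, ± SE) of called members of 4 gene lists (all but 1 ion channel gene), in mdx sln+/- (blue circles) and in mdx (orange squares), both against the same 2 WT libraries. Class II and interferon genes lie to the right except Rfx5 (-0.52), while clock and ion channel genes fall on both sides.

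Of 39 genes of the extracellular matrix, 14 rose (35.9%) and 1 fell (2.56%), against 9.41% and 6.5% of all genes. The median change was 0.47 (0.55 in mdx). Col6a3, a chain of the microfibrillar collagen VI, had levels of 3.69 and 3.65 in WT and of 4.94, 5.23 and 5.32 in mdx sln+/-, a change of 1.49 ± 0.17 (2.82-fold). Lamb1, a laminin chain of basement membranes, rose from 5.61 and 5.54 to 6.18, 6.27 and 6.44 (0.72 ± 0.09). The member that fell, Lox, crosslinks collagen and elastin: it was named for that reason, and went from 3.48 and 3.15 to 2.32, 2.56 and 1.83 (-1.07 ± 0.27, with adjusted p of 0.0528 to 0.127 without WT 1, WT 2, mdx 3, mdx sln+/- 1 or mdx sln+/- 3). Of 14 fibroblast markers, 1 rose, Col1a1 (0.90 ± 0.22, with adjusted p of 0.0586 to 0.121 without WT 1, WT 2, mdx 2 or any 1 mdx sln+/- library), which is also a matrix gene, and their summed level overlapped between the groups, at 10.51 to 11.07 in WT and 10.70 to 10.79 in mdx sln+/-. The number of matrix genes that rose was 5 without WT 2, mdx sln+/- 1 or mdx sln+/- 3, 9 without WT 1, mdx 2 or mdx sln+/- 2, and 0 without WT 2 and mdx sln+/- 3 together. Of 20 genes of TGF-beta signalling, 1 rose (5%) and 4 fell (20%), against 9.41% and 6.5% of all genes. In this list 1 was called lower without WT 1, mdx sln+/- 1 or mdx sln+/- 3, against 7 with a median-ratio scaling. The rise was not called without WT 2, mdx sln+/- 1 or mdx sln+/- 3. Skil, a repressor of SMAD factors that the pathway itself induces, went from 4.49 and 4.58 to 3.69, 3.77 and 3.88 (-0.76 ± 0.09), and Smad2, a transducer of the pathway, changed by 0.51 ± 0.09 (adjusted p = 0.0612, 0.0767 and 0.0742 without WT 2, mdx sln+/- 1 and mdx sln+/- 3).

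Circadian clock genes were called lower more often than higher. In the clock, CLOCK and BMAL1 bind E-boxes to switch on Per, Cry, Nr1d and output genes such as Dbp, whose products then repress or relay the rhythm, and the hour at which the hearts were taken is not given in the labels. Of 20 members tested, 8 fell (40%) and 3 rose (15%), against 6.5% and 9.41% of all genes. The median change was -0.44 (-0.70 in mdx). Cry2, a repressor of CLOCK and BMAL1, was 5.70 and 5.71 in WT and 4.81, 4.79 and 4.77 in mdx sln+/- (-0.92 ± 0.07). Nr1d2, a nuclear receptor that represses Bmal1, went from 6.94 and 7.18 to 6.20, 6.17 and 6.13 (-0.90 ± 0.08), and Ciart, a further repressor, from 4.17 and 3.46 to 1.47, 1.65 and 1.43 (-2.30 ± 0.28, 4.92-fold lower). Of members named after their values were seen, the output factor Dbp fell from 7.09 and 6.70 to 5.27, 5.10 and 5.20 (-1.70 ± 0.20), and Nfil3, which opposes Dbp at its sites, rose from 2.83 and 3.14 to 4.10, 4.27 and 4.18 (1.20 ± 0.19). Without WT 2 or mdx sln+/- 1, 5 members were called lower, and without WT 2 and mdx sln+/- 3 together 1 was, Cry2 (-0.90, adjusted p = 0.0496).

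For 3 of the 20 clock genes, given here for that reason, all mdx sln+/- libraries lay above all mdx libraries, and in Nr1d2 and Per1 they lay below WT. The share of all genes for which the mdx groups lay apart in this way was not computed, so the count has no background beside it. Over the list the median difference of mdx sln+/- from mdx was 0.08. Ciart went the other way, with a change from WT of -2.30 against -2.13 in mdx. Nr1d2 was 5.79, 5.77 and 5.76 in mdx, below all 3 mdx sln+/- libraries, and the direct difference was 0.39 ± 0.07 (unadjusted p = 0.000788, adjusted p = 0.578). Per1, a repressor that also responds to glucocorticoids, was 5.68 and 5.52 in WT, 5.11, 5.11 and 5.23 in mdx sln+/- and 4.74, 4.80 and 4.72 in mdx, and the direct difference was 0.40 ± 0.07 (unadjusted p = 0.000773, adjusted p = 0.578). Its change from WT of -0.45 ± 0.08 was not called without WT 1 (adjusted p = 0.0534) or mdx sln+/- 1 (0.0995). Per3, named after its values were seen, was 3.56, 3.42 and 3.71 in mdx sln+/- and 3.06, 3.34 and 3.21 in mdx (0.36 ± 0.13, adjusted p = 0.578). None of these differences passed the adjustment over all genes.

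The Ciart promoter is shown because it held the most E-boxes of the called clock genes: 150 bases before the RefSeq start site at chr3:95882229-95882378 on the minus strand, with the 3 matches to CACGTG in capitals.
Ciart: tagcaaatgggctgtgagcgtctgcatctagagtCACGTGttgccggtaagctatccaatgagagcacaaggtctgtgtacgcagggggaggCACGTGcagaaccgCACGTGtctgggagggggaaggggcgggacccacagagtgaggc
CACGTG, which reads the same on both strands, was found in 3 of 7 clock genes that fell and had a window (42.9%). It was found in 5 of 16 tested clock members with a window (31.2%) and in 1126 of 9507 genes tested with a window (11.8%).

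Glucocorticoid-responsive genes and metallothioneins showed 5 falls (31.2%) and 1 rise (6.25%) among 16 tested, against 6.5% and 9.41% of all genes. Mt1, a metallothionein that binds zinc and copper, went from 8.12 and 8.23 to 7.08, 7.05 and 6.42 (-1.33 ± 0.28), and its call was lost without WT 1 (adjusted p = 0.0637), WT 2 (0.105), mdx sln+/- 1 (0.0603) or mdx sln+/- 3 (0.0649). Without WT 1, 0 members of the list were called lower, and without WT 2, mdx sln+/- 1 or mdx sln+/- 3, 1 was, but 8 were without mdx 2 or mdx sln+/- 2 and 7 without mdx 3. The rise was not called without either WT library, mdx sln+/- 1 or mdx sln+/- 3. Among 22 heat shock and immediate early genes, 5 rose (22.7%) and 0 fell, against 9.41% and 6.5% of all genes. The 5 were Egr1, Fos, Atf3, Klf2 and Dusp1, with 0 heat shock proteins among them. Fos, Klf2 and Dusp1 were not called without WT 2 (adjusted p = 0.202, 0.0613 and 0.205) or mdx sln+/- 1 (0.169, 0.0724 and 0.174), and Fos, named after its values were seen like Dusp1, was called only without mdx sln+/- 3 among the fits that left out 1 library. Egr1, a zinc finger factor, was 2.50 and 1.34 in WT and 5.38, 5.17 and 4.70 in mdx sln+/-, a change of 3.17 ± 0.65 (8.99-fold). Its call was lost without WT 2 (adjusted p = 0.114), mdx sln+/- 1 (0.0917) or mdx sln+/- 3 (0.0565). Atf3, a stress-induced factor, went from 1.22 and 2.04 to 3.26, 3.44 and 3.34 (1.71 ± 0.23). Klf2 and Dusp1 were not called without mdx sln+/- 3 either, and Dusp1 was also not called without mdx 2 or mdx sln+/- 2. The list had 1 higher call without WT 2 or mdx sln+/- 1, 2 without mdx sln+/- 3, 3 without mdx 2 or mdx sln+/- 2, and 8 without mdx 3.

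Called genes of fatty acid use and of metabolic regulation were few and all lower. Of 32 genes of fatty acid uptake and oxidation, 4 fell (12.5%) and 0 rose. Of 18 metabolic regulators, 3 fell (16.7%) and 0 rose. Among all genes 6.5% were called lower and 15.9% in either direction. The list medians were -0.11 and -0.13, against 0.05 for all genes. Adipocyte markers were also low: of 9, 2 were tested, with a summed level of 8.67 to 9.07 in WT and of 7.45 to 8.02 in mdx sln+/-, while Adipoq, Plin1 and Lep were not analysed here. Plin4, a lipid droplet protein also made in muscle, fell (-1.19 ± 0.24, with adjusted p of 0.107, 0.0754 and 0.0634 without WT 2, mdx sln+/- 1 and mdx sln+/- 3). The part of adipocytes in the falls was not tested. Cpt1a, an isoform of the carnitine transferase that admits fatty acids to mitochondria, went from 5.72 and 5.90 to 4.89, 4.81 and 4.88 (-0.95 ± 0.08). Ucp3, a mitochondrial carrier induced by fatty acids, went from 6.76 and 7.10 to 5.16, 5.39 and 5.09 (-1.72 ± 0.19, 3.28-fold lower). Ppara, the nuclear receptor that drives both, went from 5.46 and 5.89 to 4.50, 4.63 and 4.70 (-1.07 ± 0.14). Ppargc1a, the coactivator PGC-1alpha, went from 7.41 and 8.17 to 6.32, 6.57 and 6.24 (-1.41 ± 0.24), a call that was lost without mdx sln+/- 1 (adjusted p = 0.0601) or mdx sln+/- 3 (0.0511). Nuclear genes of oxidative phosphorylation held 0 calls among 32, with a median change of 0.12. Of 27 glycolysis genes 2 rose and 2 fell (14.8% called), and Eno1, an enolase, rose from 4.73 and 4.65 to 5.62, 5.57 and 5.56 (0.89 ± 0.09). The glycolysis list had 4 higher calls without WT 1 and 1 without WT 2, mdx 2 or any 1 mdx sln+/- library, and its lower calls were 0 without WT 2 or mdx sln+/- 1 and 1 without WT 1 or mdx sln+/- 3. Without WT 2, mdx sln+/- 1 or mdx sln+/- 3, 2 fatty acid genes were called lower, and 2, 1 and 1 regulators.

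Of 29 cardiac ion channels and their partners tested, 8 fell (27.6%) and 4 rose (13.8%), against 6.5% and 9.41% of all genes. Over all 29 the signs were even, with 14 positive and 15 negative changes and a median of -0.04. Scn4b, a beta subunit of the sodium channel (chr9:45138395-45154152), went from 5.45 and 4.47 to 2.71, 2.95 and 2.79 (-2.15 ± 0.28, 4.43-fold lower). The number of members called lower was 3 without WT 2, 1 without mdx sln+/- 1 and 4 without mdx sln+/- 3, and the number called higher was 1, 0 and 1. Gja1, connexin 43, the main gap junction protein of the ventricle, rose from 6.74 and 6.57 to 8.36, 8.17 and 8.84 (1.80 ± 0.22, 3.49-fold). It was 1 of 4 genes of the costamere and intercalated disc that rose, with 0 that fell, among 34 (11.8% higher, near the 9.41% of all genes). The list had 1 higher call with a median-ratio or an upper-quartile scaling, and 2, 1 and 1 without WT 2, mdx sln+/- 1 and mdx sln+/- 3.

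Of 25 sarcomere genes 2 rose and 1 fell (12% called), against 15.9% of all genes. The rises were 0 without WT 2 or mdx sln+/- 1, and the fall was lost without any 1 library but mdx 1. Among 18 stress-response and fetal genes of the heart 3 rose and 4 fell (38.9% called, against 15.9% of all genes). That list had 2, 1 and 1 lower calls and 0, 0 and 1 higher calls without WT 2, mdx sln+/- 1 and mdx sln+/- 3. Acta1, the skeletal alpha-actin of the fetal heart, went from 8.55 and 8.35 in WT to 6.08, 6.61 and 6.80 in mdx sln+/- (-1.96 ± 0.29, 3.88-fold lower), against -1.34 ± 0.29 in mdx. Myom2, a protein of the M-band, rose from 9.74 and 9.60 to 10.33, 10.39 and 10.26 (0.66 ± 0.10, adjusted p = 0.0504 without WT 2 and 0.0623 without mdx sln+/- 1). Myh7, the slow myosin heavy chain that rises in stressed mouse ventricle, went from 10.05 and 10.16 to 10.90, 11.42 and 11.29 (1.10 ± 0.27, with adjusted p of 0.0581 to 0.119 without WT 1, WT 2, mdx 2 or any 1 mdx sln+/- library). Adrenergic and cyclic AMP signalling had 24 tested members, of which 2 rose and 2 fell. The share called was 16.7%, near the 15.9% of all genes, and the median change was 0.10. This list had 1 call in each direction without WT 2, mdx sln+/- 1 or mdx sln+/- 3. Adra1a, the alpha-1A adrenergic receptor, fell from 4.91 and 5.18 to 3.91, 3.87 and 3.67 (-1.24 ± 0.13). Rgs2, a brake on signalling from such receptors, rose from 3.51 and 3.39 to 4.56, 4.70 and 4.80 (1.24 ± 0.18). Npr3, the clearance receptor for natriuretic peptides and a marker of endocardium, fell from 5.05 and 4.84 to 3.66, 3.57 and 3.54 (-1.36 ± 0.10), against -1.03 ± 0.10 in mdx, and the direct difference of -0.33 ± 0.09 did not pass (adjusted p = 0.578). It was the only 1 of 14 endothelial markers called lower, while 2 were called higher, and the median change was 0.21. The higher calls were 0 without WT 2, mdx sln+/- 1 or mdx sln+/- 3, and 4 without WT 1.

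Of 30 genes of antioxidant defence and the NADPH oxidase, 6 fell (20%) and 5 rose (16.7%), against 6.5% and 9.41% of all genes. The median change was 0.09. Srxn1, sulfiredoxin, went from 5.06 and 4.94 to 4.26, 3.99 and 3.90 (-0.95 ± 0.12), and Gclc, the catalytic subunit for glutathione synthesis, from a mean of 3.97 in WT to 3.29, 3.25 and 3.17 (-0.74 ± 0.09). Cybb, the catalytic subunit of the phagocyte NADPH oxidase, was named after its values were seen and rose from 2.69 and 2.62 to 3.58, 3.66 and 3.58 (0.95 ± 0.14). Without WT 2, mdx sln+/- 1 or mdx sln+/- 3, 3 members were called lower and 1 higher, and without mdx 2 or mdx sln+/- 2 3 were called higher. In the unfolded protein response, Dnajc3, a cochaperone of the endoplasmic reticulum, went from 6.17 and 6.16 to 5.64, 5.60 and 5.60 (-0.55 ± 0.06). Of 24 genes of that response 3 fell and 2 rose (20.8% called), near the 15.9% called among all genes. Without WT 2, mdx sln+/- 1 or mdx sln+/- 3, 1 of these was called lower. The 2 rises numbered 4 without WT 1, and 0 without any other library or with a median-ratio or an upper-quartile scaling. Of 24 genes of autophagy and proteolysis 4 fell (16.7%) and 0 rose. Among all genes 6.5% were called lower, 9.41% higher and 15.9% in either direction. The list had 2 calls without WT 1, WT 2, mdx sln+/- 1 or mdx sln+/- 3. Those 2 were Park2, the ubiquitin ligase parkin (change -1.18 ± 0.14 with all libraries), and Bnip3, a mitophagy receptor (-0.65 ± 0.10). Of 19 cell cycle genes 2 rose (10.5%), near the 9.41% of all genes. Of these Mcm6, a subunit of the replicative helicase, rose from 1.45 and 0.86 to 2.91, 3.02 and 2.83 (1.76 ± 0.24). The other, Cdk1, which drives entry into mitosis, changed by 0.91 ± 0.24, a call that was lost without either WT library, mdx 2 or any 1 mdx sln+/- library (adjusted p of 0.0652 to 0.158).

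**Figure D4:**
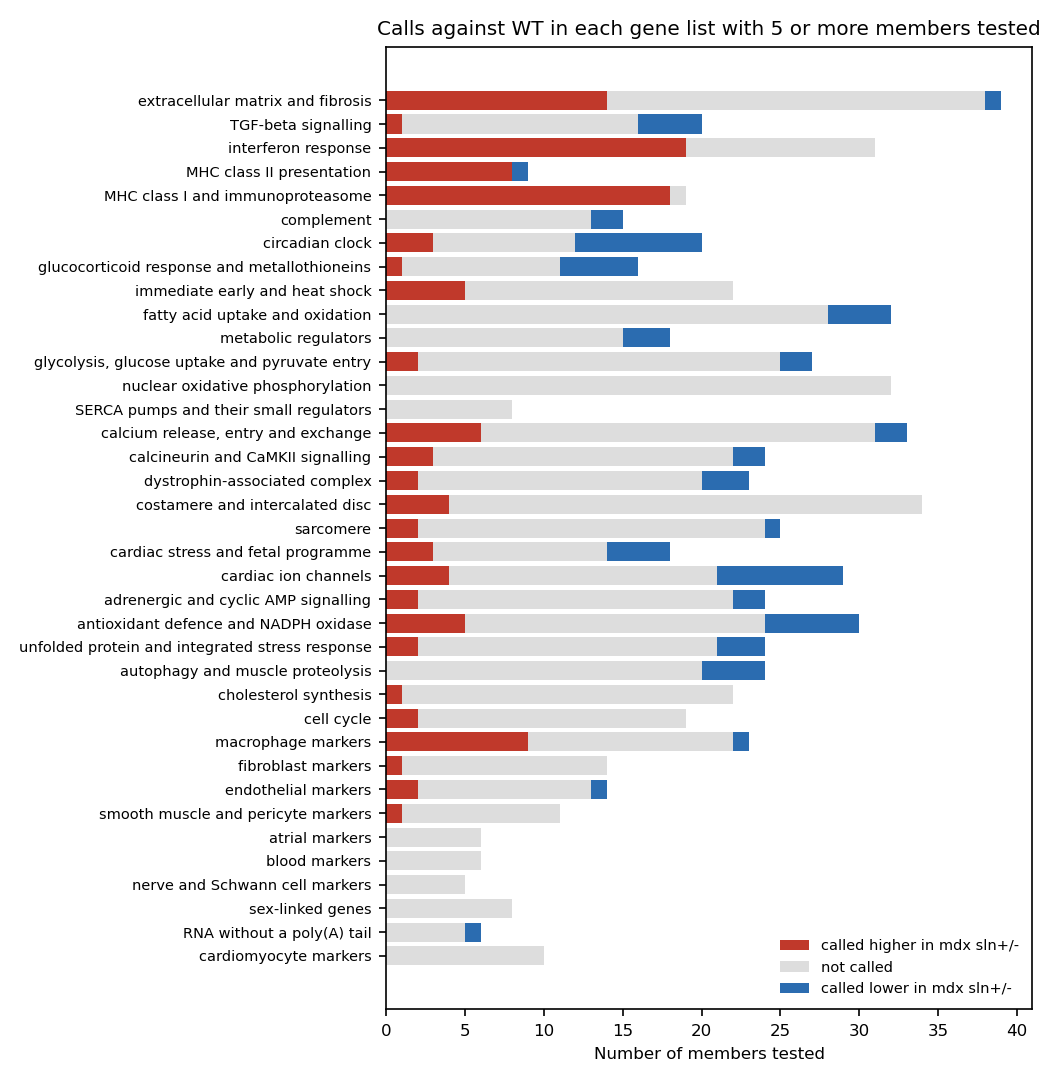
Number of members tested (x axis) of each gene list with at least 5 tested members (y axis), split into called higher in mdx sln+/- than in WT (red), not called (grey) and called lower (blue). The MHC class I list is nearly all red (18 of 19), the class II list is red but for 1 member, and oxidative phosphorylation and the SERCA list hold no call.

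Calls differed between kinds of gene. Among protein-coding genes, 1164 of 11916 (9.77%) were called higher and 772 (6.48%) lower. Long intergenic RNAs had 13 of 179 higher (7.26%) and 30 lower (16.8%), and antisense RNAs 12 of 154 higher (7.79%) and 24 lower (15.6%). Processed and other pseudogenes had 93 of 1322 higher (7.03%) and 41 lower (3.1%). On chromosome 17, which carries the MHC, 89 of 627 genes (14.2%) were called higher. These shares were not tested against each other, and the part of the lower level of RNAs without a poly(A) tail in them was not tested.

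At the level of transcripts, 2939 of 29021 tested (10.1%) were called, 1563 higher and 1376 lower, in 2383 genes. In 885 of these genes the sum of the transcripts was not called. In 83 genes, transcripts were called in both directions, and the examples that follow were chosen among them after their values were seen. Transcripts of 1 gene share reads, so their levels depend on how the quantification divided them. Hspa8, the constitutive heat shock cognate protein, had a transcript Hspa8-202 that fell from 7.96 and 7.62 to 5.79, 5.70 and 5.48, and a transcript Hspa8-209 that rose from 3.28 and 3.22 to 6.71, 6.93 and 6.64. Nrap, an actin-anchoring protein of the intercalated disc, had changes of -1.66 ± 0.24 in Nrap-205 and of 2.24 ± 0.37 in Nrap-206, while its 4 more abundant transcripts were not called. The number of transcripts called was 723 without WT 2, 228 without mdx sln+/- 1 and 422 without mdx sln+/- 3.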

How the data were processed

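RNA of the left ventricle was sequenced in 8 libraries (WT 2, mdx 3, mdx sln+/- 3). Per the submitters' processing notes, the authors aligned reads to mm10 with STAR 2.6.1 and used Partek and limma. The authors deposited normalised log2 values for each transcript, in 16 columns, 2 per library, whose names end in r1 and r2. What r1 and r2 are, the normalisation, strandedness and the annotation release are not given in the sources used here, and no counts were used, so the depth behind a value, and with it its counting precision, is unknown.

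Both columns of a library were averaged on the log2 scale (r = 0.981 to 0.987 across transcripts), turned back with 2 to the power of the value minus 1, summed by gene and expressed as log2(value + 1), which takes the deposited scale to be log2(value + 1). Genes that reached a value of 1 in 2 or more libraries were fitted with limma 3.58.1 (R 4.3.3) over all 8 libraries, with a prior trend on mean level and Benjamini-Hochberg adjustment (0.05) over all genes tested. Tables and figures were made with Python 3.11.15, pandas 2.3.3 and matplotlib 3.10.9. Averaging mdx 2 with mdx sln+/- 2 gave, for each transcript, the average of the 4 libraries numbered 1 and 3 in these groups, within 5.12e-05, so a term with this contrast had been removed before deposit. It was fitted, which leaves 4 residual degrees of freedom, because without it the p-values are too small. The procedure was tested on simulated data. Gene positions are those of GENCODE M21 on GRCm38. Promoters are from RefSeq.

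The comparison, its gene lists and the rule for names were chosen with earlier results of these data known. The rule names Dmd, the 10 largest rises and 10 largest falls among called genes with no overlap between groups, a mean level of at least 1 and a symbol that is not a predicted gene, and, from each list, the 2 called members of lowest adjusted p. Members of the SERCA and dystrophin complex lists could all be named. Other genes are said to be picked after their values were seen, and some genes are not reported here. Same-numbered WT and mdx sln+/- libraries share no source in the labels. Alternatives changed the terms of the fit, the scaling, the filter, the pseudocount, the columns, the transcript used and the libraries.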

Additional observations from a re-analysis of the deposited data

How the results depend on the processing

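All 78 called genes of the rule for names that are reported here kept their direction in every alternative run that tested them. Their calls were less stable. With the name style as a further term 18 of the 78 lost their call, as did 32 without mdx sln+/- 1 and 23 without mdx sln+/- 3. Most also lost it without WT 2 and mdx sln+/- 3 together, which left 1 WT library. Of list members not named in the report, Nfatc1 (calcineurin list) and Dhcr7 (cholesterol list) turned sign when the most abundant transcript stood for the gene, from -0.32 to 0.0423 and from 0.22 to -0.665. Calls depended on the terms of the fit and on single libraries. Against 2193 genes called (1297 higher, 896 lower), 3996 (2419, 1577) were called when the removed term was not fitted, 3796 (2272, 1524) from WT and mdx sln+/- libraries alone, 711 (389, 322) with the name style as a term, 349 (171, 178) in plain-named libraries alone, and 1401 (844, 557, with 164 over 2-fold) among genes with a mean value of at least 10, where fewer genes were tested. Without WT 2 and mdx sln+/- 3 together 66 (28, 38, with 62 over 2-fold) were called. Calls over 2-fold, 340 as reported, numbered 577 with a pseudocount of 0.1 and 122 with one of 5. Leaving out 1 library at a time gave 316 to 2402 calls (161 to 1438 higher, 155 to 964 lower, 182 to 428 over 2-fold). Where mdx 2 or mdx sln+/- 2 was left out, the removed term was carried by 1 library. For mdx against WT the number was 3798, 559, 124, 154 and 1229 with the removed term not fitted, the name style, plain names, both libraries left out and the mean value of at least 10, and 638 to 1811 with 1 library left out. Called transcripts numbered 6379 with the removed term not fitted, 1483 from r1 and 1197 from r2 columns, and 228 to 3224 with 1 library left out. The cause of these shifts was not tested. Between mdx sln+/- and mdx, limma called 0 genes in every alternative. The replicate block, in place of the removed term, gave 2363 calls and ended no call of a named gene. The paired numbers are shared by 2 pairs only, whose deviations from the group means correlated at 0.014 and -0.080. Depth limits could not be given, since no counts were used.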

Other observations

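Some genes outside the rule for names differed between mdx sln+/- and mdx at a small unadjusted p. They were picked from the values of that comparison and are given as values only. Ccl2, a chemokine that draws monocytes, was 0.59 and 0.55 in WT, 1.95, 2.15 and 2.34 in mdx and 1.31, 1.29 and 1.29 in mdx sln+/-, and the direct difference was -0.85 ± 0.12 (unadjusted p = 0.000146, adjusted p = 0.477). Its change from WT in mdx sln+/- was 0.73 ± 0.14.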
